A study of Mus musculus with 67 samples.

Results

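The Olig loci held 44 of the 111638 accessible elements for which values were analysed. The elements were chosen by name, as those whose nearest transcription start site (TSS) in the HOMER annotation of the peaks belonged to Olig1, Olig2 or Olig3, and 4 of the 48 elements so annotated had no value in the table and were not used here. Olig1 had 11 elements and Olig2 had 16, all on chromosome 16, and Olig3 had 17 on chromosome 10. Each element is named below by its gene and by the distance of its center from that TSS in kb, upstream being negative.

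Accessibility was measured by CaTS-ATAC, an assay in which cells are fixed and tagged by the Tn5 transposase before they are stained for intracellular proteins and sorted, in neural progenitors (NPs) made from HM1 mouse embryonic stem cells. The 67 samples fell into 25 conditions, 17 with 3 replicates and 8 with 2. The cells were cultured with bFGF and LGK, an inhibitor of Wnt secretion, then with bFGF, the Wnt activator CHIR99021 and the BMP and TGF-beta pathway inhibitors DMH1 and SB-431542, and from day 3 with retinoic acid and SAG, a small-molecule agonist of Smoothened that activates the Sonic hedgehog pathway. The groups were neuromesodermal progenitors (NMPs) on day 3, before SAG, and 4 NP types on each of days 4, 5 and 6: p0-1 from 0 and 10 nM SAG, p2 from 10 and 100 nM, and pMN and p3 from 100 and 500 nM. All NPs were gated as SOX2+, p3 as NKX2.2+ OLIG2-, pMN as OLIG2+ without NKX2.2, p2 as NKX6.1+ PAX6+ and p0-1 as PAX6+ NKX6.1-. OLIG2 protein was therefore itself used to separate pMN from p3, so the comparisons of cell types below include the locus of a protein that was itself sorted on. All samples came from a single cell line. Replicates of a condition were separate differentiations. The NP groups below pool 2 SAG concentrations, so a group of 6 samples holds 3 replicate numbers and not 6. Samples that share a number mostly deviated together, as described with the processing, and the main fits treated them as independent.

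The Olig genes encode basic helix-loop-helix transcription factors that act mainly as repressors. In the ventral neural tube Olig2 is induced by Sonic hedgehog, defines the pMN domain, represses the programs of the neighboring domains and is needed for motor neurons and then oligodendrocytes. Olig1 lies next to Olig2, is expressed with it and acts later in the oligodendrocyte lineage, whereas Olig3 is known for its role in dorsal progenitors and in newly born ventral neurons.

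In mm10 (GRCm38) all 3 genes lie on the plus strand. Olig2 spans chr16:91225550-91228677 in 2 exons, Olig1 spans chr16:91269769-91271939 in a single exon and starts 44.2 kb beyond the start of Olig2, and Olig3 spans chr10:19356539-19358604 in a single exon. Each gene had 1 element over its start that also overlapped coding sequence, namely Olig2 +0.7 kb, Olig1 +0.6 kb and Olig3 +0.4 kb, and these are called TSS elements here. The 9 Olig2 elements between -64.6 and -32.5 kb lay in introns of the predicted noncoding RNA Gm41492, which is on the minus strand, and 2 of them also overlapped an exon of Gm9881. Olig2 +9.2 kb, the widest element at 5915 bp, overlapped an exon of the predicted gene Gm52261. The remaining elements were intergenic. Assignment to the nearest TSS does not show which gene an element acts on.

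The sequences below are the central 300 bases of 4 distal elements on which comparisons turn, read 5′ to 3′ on the plus strand of GRCm38, followed by the 250 bases before the start of Olig2 and Olig3 from the RefSeq promoter table of the same build. The table held promoters of 2 of the 3 genes, and Olig1 was not matched. Capitals mark matches on either strand to CATATG (the E-box of Olig factors), ACCACCCA (Gli), TAATTA (homeodomain), CACTTNA (Nkx2), TGTTTNC (Fox), AGGTCA (nuclear receptor) or CAATAAA (Hox and Cdx), and a match on the minus strand is shown as its complement. Olig1 +28.1 kb and +31.9 kb are shown because they were high in pMN, Olig3 -38.1 kb because it was high in p3 and Olig3 +44.8 kb because its mean was highest in p2.
Olig1 +28.1 kb, chr16:91297742-91298041: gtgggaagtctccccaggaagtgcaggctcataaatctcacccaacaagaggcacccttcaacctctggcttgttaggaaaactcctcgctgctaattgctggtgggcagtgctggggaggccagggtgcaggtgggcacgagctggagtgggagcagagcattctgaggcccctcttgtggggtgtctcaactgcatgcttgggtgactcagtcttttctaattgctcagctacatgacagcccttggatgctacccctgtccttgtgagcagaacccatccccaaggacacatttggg
Olig1 +31.9 kb, chr16:91301493-91301792: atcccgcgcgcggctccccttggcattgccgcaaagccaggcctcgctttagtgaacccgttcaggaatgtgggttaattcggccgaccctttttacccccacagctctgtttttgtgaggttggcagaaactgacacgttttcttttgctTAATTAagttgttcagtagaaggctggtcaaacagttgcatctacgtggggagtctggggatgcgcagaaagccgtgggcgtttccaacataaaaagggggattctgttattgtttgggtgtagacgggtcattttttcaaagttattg
Olig3 -38.1 kb, chr10:19318277-19318576: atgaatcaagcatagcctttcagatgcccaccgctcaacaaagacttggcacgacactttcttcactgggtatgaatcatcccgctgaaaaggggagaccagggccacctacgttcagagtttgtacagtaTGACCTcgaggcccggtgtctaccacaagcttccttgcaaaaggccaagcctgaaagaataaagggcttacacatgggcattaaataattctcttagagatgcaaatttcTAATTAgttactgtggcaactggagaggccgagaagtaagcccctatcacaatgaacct
Olig3 +44.8 kb, chr10:19401185-19401484: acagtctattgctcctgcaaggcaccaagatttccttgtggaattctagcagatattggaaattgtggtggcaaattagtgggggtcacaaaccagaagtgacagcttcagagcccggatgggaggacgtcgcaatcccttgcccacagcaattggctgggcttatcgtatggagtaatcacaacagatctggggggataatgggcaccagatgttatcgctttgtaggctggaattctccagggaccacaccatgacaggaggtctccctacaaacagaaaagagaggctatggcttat
Olig2 promoter, chr16:91225300-91225549: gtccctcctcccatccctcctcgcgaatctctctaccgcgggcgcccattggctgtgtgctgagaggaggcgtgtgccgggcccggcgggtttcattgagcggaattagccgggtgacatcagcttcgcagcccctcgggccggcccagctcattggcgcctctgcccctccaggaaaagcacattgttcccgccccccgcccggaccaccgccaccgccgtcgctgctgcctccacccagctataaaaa
Olig3 promoter, chr10:19356289-19356538: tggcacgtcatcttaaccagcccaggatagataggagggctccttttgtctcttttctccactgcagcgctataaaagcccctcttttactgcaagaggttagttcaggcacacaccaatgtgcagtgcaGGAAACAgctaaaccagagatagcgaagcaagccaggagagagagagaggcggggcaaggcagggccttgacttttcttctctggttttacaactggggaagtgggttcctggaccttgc

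Olig1 +31.9 kb and Olig3 -38.1 kb held TAATTA, and Olig3 -38.1 kb also held AGGTCA. Olig1 +28.1 kb and Olig3 +44.8 kb held none of the motifs in capitals. The Olig3 promoter held TGTTTNC, found in 17.8% of the 32544 promoters of the table, and the Olig2 promoter held none. Over the 300-base centers of all 44 elements, TGTTTNC was found in 11 (26.3% of all 111638 windows), TAATTA in 7 (7.85%), CACTTNA in 8 (15.0%), AGGTCA in 7 (19.8%), CAATAAA in 5 (5.91%) and CATATG in 3 (5.22%). The wider E-box CANNTG, which contains CATATG, was found in 37 (79.8%), the Sox motif ACAANG in 24 (55.7%) and ACCACCCA in 0 (1.55%). These are matches of letters in the central window and not evidence of binding.

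Values are given as normalized counts, which are the reads in an element divided by the sample's size factor, recovered from the deposited VST (variance-stabilized) values. Elements differ in width, from 290 to 5915 bp, so levels are compared between groups and not between elements unless given per kb. An element was tested where its mean was above 100 normalized counts in the samples fitted, and was called where limma gave an adjusted p under 0.01 and the fold change between group means was above 2. Of the 44 elements, 30 were tested in at least 1 of 43 comparisons and 26 of these were called in at least 1, against 56.7% of all elements tested. The other 14 did not reach the level needed in any comparison, and 8 of the 44 stayed below 100 normalized counts in every sample. Elements that are high in 1 group alone can pass this level through that group, so counts over the tested elements are given beside the background share and, where the filter matters, beside the same count without it.

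The samples held 9298160 to 29985325 reads in elements (median 20254011). One library stood apart. The p2 sample of day 6 at 100 nM labelled replicate 3 had a highest correlation of 0.923 with the other replicates of its condition, against a median of 0.975 over all samples and 0.947 for the next lowest. All 14 calls of elements described by name that rest on it were also made without it, and values and counts without it are given where they differ in their call. The day 6 comparisons of p2 with pMN or p3 at 100 nM SAG alone include this library and were not repeated without it. Of 5 NMP marker elements, 4 had their highest mean in NMPs, among them T (1175 normalized counts against 99.0 to 276 in NPs), and Tbx6 did not (778 in NMPs against 857 in p0-1 on day 6). Of the markers listed for each NP type, all 3 of p0-1 (Dbx1, Dbx2 and Pax7) and 2 of 3 of pMN (Olig2 and Neurog2, not Mnx1) had their highest day 6 mean in that type, but only 1 of 4 of p2 (Foxn4) and 0 of 2 of p3 did. Of the p3 markers, Nkx2-9 had 1914 in p3 and 2091 in pMN, and Sim1 had 638 in p3 and 670 in p0-1. The names p2 and p3 therefore rest on the sorted proteins and not on the accessibility of these markers.

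**Figure D1:**
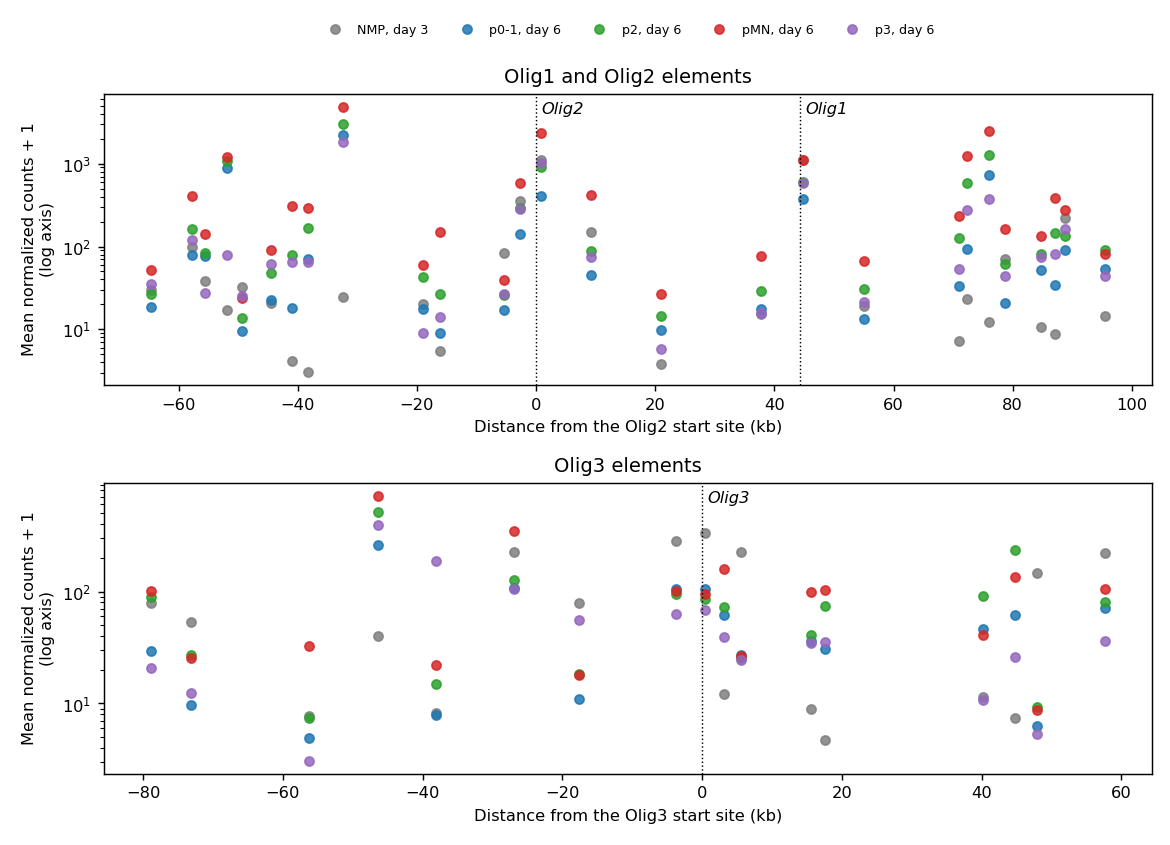
Mean normalized counts of each element on day 6 (log axis, normalized counts + 1) against the distance from the Olig2 start or the Olig3 start in kb, for p0-1, p2, pMN and p3, with the day 3 means of NMPs. On chromosome 16 the pMN mean was the highest of the 4 types at 25 of 27 elements, and on chromosome 10 at 8 of 17.

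The 27 elements of Olig1 and Olig2 had their highest mean in pMN at 24 positions on day 4, at 27 on day 5 and at 25 on day 6. Of all 111638 elements, 23.3%, 20.9% and 21.1% had their highest mean in pMN on these days. The 17 Olig3 elements had it at 7, 13 and 8. These counts are descriptions and include elements with few reads. Both loci are drawn in the map of day 6 means.

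Olig2 -32.5 kb held the most reads of the 44 elements, with a mean over the 25 conditions of 2328 normalized counts, and was also the highest per kb of width. In NMPs it was nearly without reads, at 35.2, 12.1 and 22.6 normalized counts in the 3 samples. By day 4 it had risen in all 4 types, in p0-1 to between 943 and 1589 (median 1416, n = 6), in p2 to between 1630 and 2159 (median 1964, n = 6), and in pMN to between 3080 and 3483 (median 3230, n = 6). The 5 p3 samples held 1177, 1187, 1278, 1311 and 1469.

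Every day 4 sample thus lay far above every NMP sample, in the types with and without OLIG2 protein alike. On the log2 scale of group means the rise was 7.06 in pMN (limma, adjusted p = 4.67e-14), 6.29 in p2 (adjusted p = 9.03e-13), 5.78 in p0-1 (adjusted p = 3.44e-10) and 5.72 in p3 (adjusted p = 2.57e-13). These 4 comparisons share the NMP samples. Every pMN sample lay above every p2 sample on day 4, every p2 sample lay above every p0-1 and p3 sample, and p0-1 and p3 overlapped. The order pMN, then p2, held on days 5 and 6 with no overlap between these 2 groups.

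On day 6 the 4 pMN samples held 4411, 4417, 5179 and 5181 normalized counts. The 6 p2 samples lay between 2554 and 3506 (median 3150), the 5 p0-1 samples held 1442, 1603, 2567, 2754 and 2812, and the 4 p3 samples held 1031, 1858, 1869 and 2488. No pMN sample overlapped any other type. pMN exceeded p0-1 by a log2 fold change of 1.10 (adjusted p = 0.00179) and p3 by 1.40 (adjusted p = 0.000415), and exceeded p2 by 0.65 (adjusted p = 0.00139), under the 2-fold threshold. Without the replicate 2 samples the adjusted p against p0-1 was 0.0185 at a log2 fold change of 1.17, and without those of replicate 3 it was 0.0464 at 0.96.

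The TSS element of Olig2, +0.7 kb, behaved differently from the distal one, since it was already open in NMPs, at 1158, 1191 and 993 normalized counts. On day 4 it held 1204 to 1510 in pMN (median 1340, n = 6), 602 to 931 in p2 (median 774, n = 6) and 350 to 1011 in p0-1 (median 584, n = 6), and 696, 804, 846, 886 and 924 in p3. Only pMN lay wholly above NMPs, and p2 and p3 lay wholly below them. The log2 changes from NMPs were 0.29 in pMN, -0.42 in p3, -0.51 in p2 and -0.83 in p0-1, none of them past the 2-fold threshold.

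From day 4 to day 6 the TSS element separated the types further. On day 5 pMN held 1823, 1877, 1959, 1974 and 2128 normalized counts, p3 held 910, 978, 1022, 1072 and 1220, and p2 and p0-1 lay between 650 and 942 (median 784, n = 6) and between 302 and 437 (median 382, n = 6). On day 6 pMN held 2298, 2302, 2338 and 2361, p3 held 904, 925, 1060 and 1131, p2 lay between 688 and 1217 (median 917, n = 6), and p0-1 held 315, 381, 409, 444 and 489. The order pMN, p3, p2, p0-1 was the same on all 3 days, with p3 and p2 overlapping throughout and p2 and p0-1 overlapping on day 4.

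Against p0-1 the log2 fold change of pMN at the Olig2 TSS was 1.12 on day 4 (limma, adjusted p = 0.000475), 2.35 on day 5 (adjusted p = 3.47e-09) and 2.51 on day 6 (adjusted p = 5.40e-06). Against p2 it was 0.80, 1.29 (adjusted p = 8.15e-06) and 1.34 (adjusted p = 0.000315), and against p3 it was 0.71, 0.91 and 1.21 (adjusted p = 4.77e-06). The values without a fold change above 2 were not called. At 100 nM SAG alone the day 6 difference from p2 was 1.09 and was not called (adjusted p = 0.0767). The day 4 difference from p0-1 was not called without the replicate 1 samples (log2 fold change 0.95) or those of replicate 2 (adjusted p = 0.0211), and the day 6 difference from p2 had an adjusted p of 0.0283 without those of replicate 2. The TSS element also exceeded p0-1 in p2 and p3 on day 6, by log2 1.17 (adjusted p = 0.00105) and 1.30 (adjusted p = 1.17e-05), and in p2 this had an adjusted p of 0.0183 without the replicate 1 samples and 0.0815 without those of replicate 2, and was 0.74 and not called at 10 nM SAG alone.

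The Olig1 TSS element, +0.6 kb, changed less. It held 1139, 1171 and 1020 normalized counts in NMPs, and on day 4 the ranges of all 4 types lay between 371 and 1020 and overlapped between neighbors. By day 6 pMN held 1080, 1087, 1107 and 1124, against 457 to 712 in p2 (median 595, n = 6), 559, 573, 576 and 652 in p3, and 256, 310, 417, 427 and 453 in p0-1. Every pMN sample on days 5 and 6 lay above every sample of the other types, but the day 6 level of pMN was about that of NMPs.

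At the Olig1 TSS, pMN exceeded p0-1 by log2 1.23 on day 5 (limma, adjusted p = 5.15e-07) and 1.56 on day 6 (adjusted p = 6.92e-05). The differences from p2 (0.89) and p3 (0.90) on day 6 were under 2-fold and were not called. Over the 25 conditions the Olig1 and Olig2 TSS elements correlated at r = 0.92, and the Olig2 TSS and Olig2 -32.5 kb at r = 0.26. These correlations describe conditions that share libraries and are not tests.

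**Figure D2:**
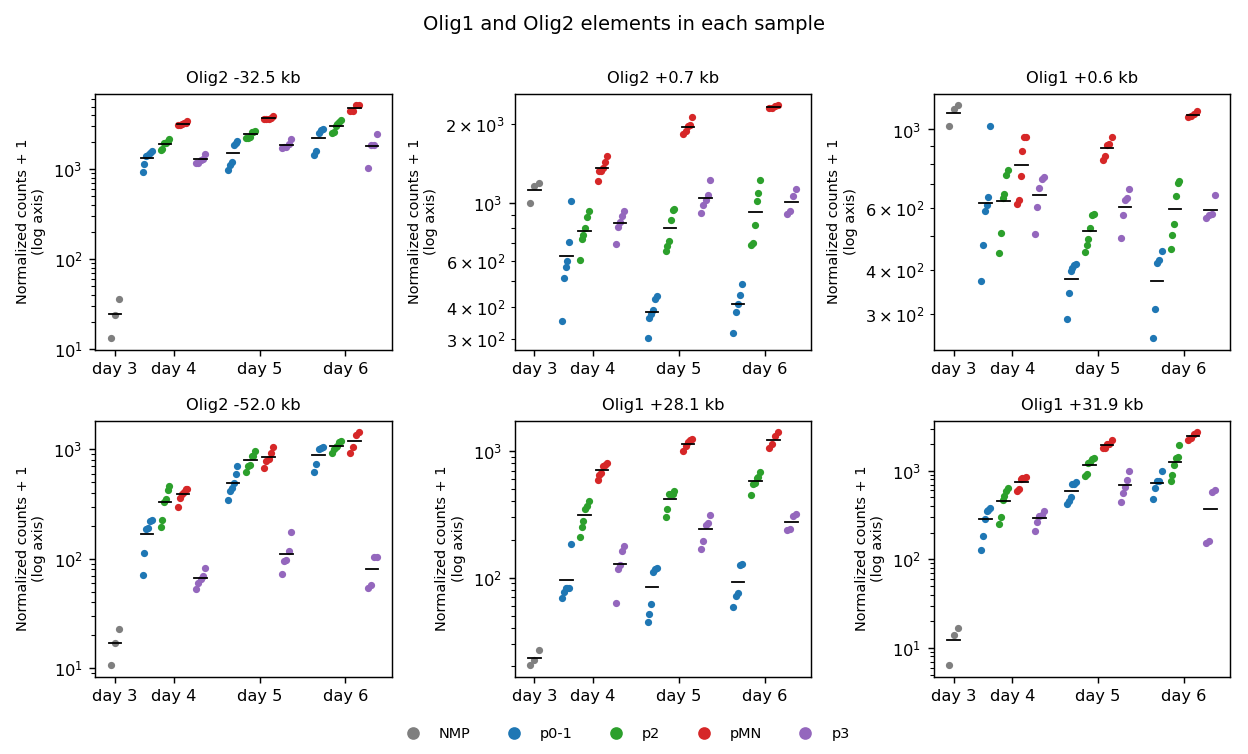
Normalized counts + 1 (log axis) of each sample at elements of Olig1 and Olig2, by day and cell type; points are samples ordered by value within a group and black bars are group means. The TSS elements start from about 1000 to 1200 in NMPs, whereas Olig2 -32.5 kb starts from 12.1 to 35.2.

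The distal element Olig1 +28.1 kb graded all 4 types. It held 19.4, 25.6 and 21.5 normalized counts in NMPs. On day 4 it lay between 591 and 810 in pMN (median 717, n = 6), between 207 and 399 in p2 (median 315, n = 6) and between 68.5 and 183 in p0-1 (median 81.9, n = 6), and held 62.6, 115, 126, 160 and 176 in p3. On day 6 the pMN samples held 1052, 1134, 1308 and 1407, the p2 samples 446 to 684 (median 585, n = 6), the p3 samples 236, 241, 308 and 317, and the p0-1 samples 57.7, 71.1, 75.3, 126 and 127.

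On day 6 none of the 4 groups overlapped, in the order pMN, p2, p3, p0-1. pMN exceeded p0-1 by log2 3.73 (limma, adjusted p = 9.46e-06), p3 by 2.15 (adjusted p = 4.68e-06) and p2 by 1.09 (adjusted p = 0.000305). Without the replicate 2 samples the difference from p2 had an adjusted p of 0.0121, without those of replicate 3 it was 0.89 on the log2 scale, and at 100 nM SAG alone it was 0.97 (adjusted p = 0.0792). p2 exceeded p0-1 by 2.65 (adjusted p = 2.75e-05), and p3 exceeded p0-1 by 1.58 (adjusted p = 0.000301), which had an adjusted p of 0.0179 without the replicate 2 samples. The order of the 4 types was the same on days 4 and 5, where p3 overlapped p0-1 and p2 respectively. On day 4 the differences of pMN from p2 (1.20) and of p2 from p0-1 (1.68) were called, but without the replicate 1 samples their adjusted p-values were 0.0189 and 0.0801, and the latter was 0.0582 without replicate 2 and 0.0299 without replicate 3. At matched SAG concentrations neither was called (adjusted p = 0.131 and 0.598).

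Olig1 +31.9 kb opened in all types and then parted in p3. It held 15.8, 5.40 and 12.9 normalized counts in NMPs and rose by day 4 to means of 282 ± 106 in p0-1 (SD, n = 6), 460 ± 158 in p2 (n = 6), 757 ± 119 in pMN (n = 6) and 291 ± 55.2 in p3 (n = 5). The rises in log2 were 4.52, 5.22, 5.94 and 4.56, all called by limma (adjusted p between 1.23e-12 and 2.34e-07). On day 6 pMN held 2254, 2370, 2574 and 2728, p2 lay between 771 and 1954 (median 1279, n = 6), p0-1 held 478, 639, 765, 768 and 1006, and p3 held 151 and 158 at 500 nM SAG and 574 and 607 at 100 nM.

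The pMN samples of day 6 lay above all others, and the p3 samples of 500 nM below all others, at this element. pMN exceeded p3 by log2 1.38 on day 4, 1.52 on day 5 and 2.73 on day 6 (limma, adjusted p = 0.000331). It exceeded p0-1 on day 6 by 1.76 (adjusted p = 6.29e-05) and p2 by 0.97 (adjusted p = 0.00713), which is just under 2-fold. Without the p2 library that stood apart the difference from p2 was 1.13 and was called (adjusted p = 0.000712). p3 lay below p2 by 1.76 on day 6 (adjusted p = 0.00176), and without the replicate 2 samples this had an adjusted p of 0.0190.

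Olig2 -52.0 kb differed in another way, since it opened in p0-1, p2 and pMN and stayed low in p3. It held 21.8, 16.2 and 9.69 normalized counts in NMPs. On day 6 it held 933, 1045, 1341 and 1431 in pMN, 930 to 1185 in p2 (median 1066, n = 6) and 616, 740, 1009, 1030 and 1040 in p0-1, against 53.1, 56.3, 102 and 104 in p3. The 3 types other than p3 overlapped as neighbors in the order pMN, p2, p0-1, and no p3 sample overlapped them.

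p3 lay below pMN at Olig2 -52.0 kb by log2 2.55 on day 4 (limma, adjusted p = 1.40e-08), 2.93 on day 5 (adjusted p = 5.20e-08) and 3.90 on day 6 (adjusted p = 4.50e-06). On day 6 the difference of p3 from p2 was -3.75 (adjusted p = 4.58e-08) and from p0-1 -3.47 (adjusted p = 9.97e-07). Between pMN and p2 the log2 fold changes were 0.23, 0.10 and 0.15 on the 3 days, and on the VST scale the 95% interval of the day 6 difference was -0.13 to 0.39. From NMPs it rose in pMN, p2 and p0-1 by log2 4.52, 4.29 and 3.32, and in p3 its mean on day 4 was 65.1 ± 11.0 (SD, n = 5) and the element was not tested there. The difference of p3 from p0-1 on day 4 (-1.35) was called, but its adjusted p was 0.133 without the replicate 1 samples, 0.0921 without those of replicate 3 and 0.0185 with voom on the recovered reads, and the day 4 difference of pMN from p0-1 (1.20) had 0.0246 without those of replicate 3.

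Some elements with few reads early were pMN-high late. Olig2 -40.9 kb was at 2.70 to 3.64 normalized counts in NMPs and at a mean of 10.6 ± 3.52 in pMN on day 4 (SD, n = 6). In pMN it then held 113, 114, 132, 136 and 148 on day 5 and 227, 259, 350 and 390 on day 6. On day 6 the p2 mean was 77.7 ± 16.8 (n = 6), the p3 mean 64.7 ± 26.4 (n = 4) and the p0-1 mean 17.3 ± 6.95 (n = 5), and no sample of them reached the pMN samples.

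In pMN, Olig2 -40.9 kb rose from day 5 to day 6 by log2 1.25 (limma, adjusted p = 0.000453), or 0.89 without the replicate 3 samples, and on day 6 it exceeded p0-1 by 4.07 (adjusted p = 1.32e-05), p3 by 2.23 (adjusted p = 0.000182) and p2 by 1.97 (adjusted p = 0.000252), the last with an adjusted p of 0.0155 without the replicate 2 samples and 0.0767 at 100 nM SAG alone. Olig1 +42.9 kb went the same way. In pMN it held 116, 174, 175, 176 and 224 on day 5 and 346, 372, 395 and 410 on day 6, a rise of log2 1.13 (adjusted p = 0.000453), and its day 6 means were 146 ± 57.3 in p2 (n = 6), 79.2 ± 10.4 in p3 (n = 4) and 33.4 ± 13.1 in p0-1 (n = 5). None of the 4 groups overlapped on day 6 at Olig1 +42.9 kb.

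Olig2 +9.2 kb, the broad element behind the gene, held 168, 151 and 124 normalized counts in NMPs. On day 4 it had means of 61.3 to 80.8 in p0-1, p2 and p3 and of 256 ± 83.3 in pMN (SD, n = 6). On day 6 pMN held 315, 321, 410 and 635, above 36.8 to 153 in all samples of the other 3 types. The log2 fold changes of pMN on day 6 were 3.23 against p0-1 (limma, adjusted p = 1.57e-05), 2.27 against p2 (adjusted p = 0.000456; 0.0231 without the replicate 2 samples and 0.112 at 100 nM SAG alone) and 2.50 against p3 (adjusted p = 0.000121). Olig2 -38.3 kb was at 0, 4.05 and 2.15 normalized counts in NMPs, rose in pMN by log2 2.52 from day 4 to day 5 (adjusted p = 4.02e-08), and on day 6 had a pMN mean of 291 ± 115 (n = 4) that overlapped the p2 mean of 167 ± 51.5 (n = 6) within the range of samples.

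**Figure D3:**
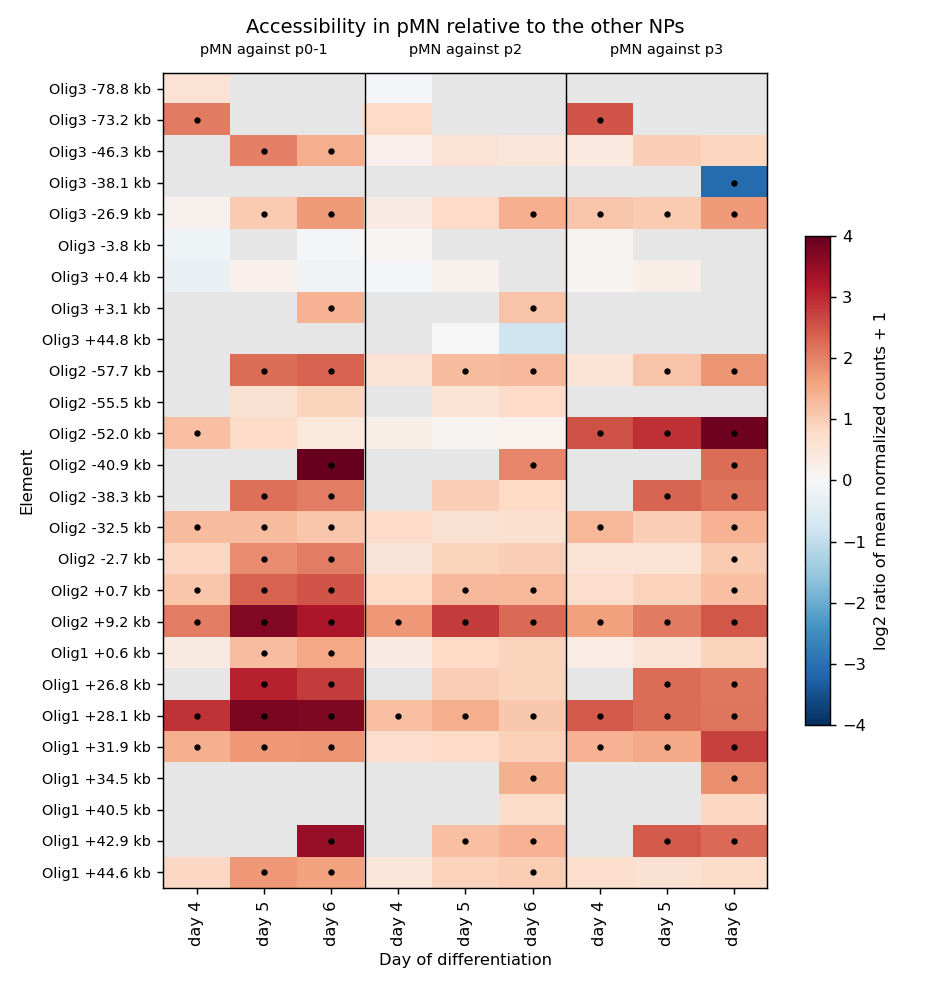
Log2 fold change of pMN over p0-1, p2 and p3 on days 4, 5 and 6 for every element tested in these comparisons; dots mark changes that were called and grey cells comparisons in which the element was not tested. Olig1 +28.1 kb and Olig2 +9.2 kb are called in all 9 comparisons, and Olig3 -38.1 kb is called lower in pMN than in p3 on day 6.

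Counted over both loci, pMN exceeded p0-1 at 7 of 14 tested elements on day 4, 13 of 16 on day 5 and 16 of 20 on day 6, against 3.32%, 6.81% and 9.28% of all elements called higher in pMN in these comparisons (3.86%, 11.2% and 12.3% called in either direction). pMN exceeded p2 at 2 of 16, 5 of 18 and 10 of 21 (0.261%, 1.19% and 2.4% called higher, and 0.277%, 2.31% and 3.96% in either direction), and differed from p3 at 7 of 15, 9 of 16 and 15 of 19 (background 7.96%, 19.1% and 25.9%). All of these were higher in pMN except 1, Olig3 -38.1 kb against p3 on day 6. The median log2 fold change of the tested elements on day 6 was 1.73 against p0-1, 0.99 against p2 and 1.77 against p3, beside -0.08, 0.02 and -0.00 over all elements tested. Without the filter on the mean, all 44 elements entered and 34, 15 and 31 were called on day 6, against 13.6%, 4.36% and 29.8% of all elements. The counts without the filter were 13, 2 and 18 on day 4 (5.93%, 0.356% and 12.5%) and 32, 13 and 29 on day 5 (17.9%, 3.06% and 29.0%). Without the p2 library that stood apart, pMN exceeded p2 on day 6 at 12 of 23, against 6.18% of all elements called.

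By gene, on day 6 pMN was called against at least 1 other type at 7 of 8 tested Olig1 elements, 8 of 9 Olig2 elements and 4 of 7 Olig3 elements. Of all elements tested in the 3 comparisons of that day, 29.1% were called in at least 1. On day 5 the counts were 6 of 6, 7 of 8 and 2 of 4 (23.1%), and on day 4 they were 2 of 4, 4 of 6 and 2 of 6 (9.77%). Elements high in pMN alone can pass the filter on the mean through pMN, and these counts by gene are not given without it. At 100 nM SAG alone, where both types were collected, pMN exceeded p2 at 5 of 18 elements on day 5 (1.6% of all elements called in either direction). On day 4 limma called 0 of 29768 elements at 100 nM alone and 0 of 16 at these loci, where 9 had an unadjusted p under 0.05 (7.14% of all elements). On day 6, with 3 p2 and 2 pMN samples, it called 0 of 32573 elements and 0 of 21 at these loci, where 18 had an unadjusted p under 0.05 (13.1% of all elements). The 3 p2 samples of that day 6 fit included the library that stood apart, and no fit at 100 nM alone left it out. The differences of pMN from p2 on days 4 and 6 were thus called only with the SAG concentrations pooled, and for day 6 the part of this library in that was not tested. At 100 nM alone, pMN differed from p3 at 13 of 19 elements on day 6, 12 higher and 1 lower (background 17.6%). p0-1 shared no SAG concentration with pMN or p3. In comparisons with p0-1, cell type and concentration therefore cannot be told apart for these types.

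The types other than pMN also differed from each other at the loci. p2 exceeded p0-1 at 1 of 12 elements on day 4, 4 of 9 on day 5 and 5 of 13 on day 6 (0.185%, 3.07% and 4.67% called higher in p2, and 0.189%, 3.84% and 5.3% in either direction). At 10 nM SAG alone these counts were 0 of 12, 0 of 10 and 2 of 14, against 0 of 29490 elements on day 4 and 0.0124% and 6.02% of all elements on days 5 and 6, and unadjusted p-values under 0.05 were found for 4 of the 12 and 8 of the 10 (7.78% and 23.9% of all elements). Without the library that stood apart, 5 of 14 were called on day 6 (7.54%), with Olig3 -46.3 kb in place of Olig2 -57.7 kb. p3 was above p0-1 at 5 of 10 and below it at 1 on day 5, and above it at 3 of 10 and below it at 1 on day 6 (background 18.6% and 23.7%), and the 1 element below on both days was Olig2 -52.0 kb. On day 4 p3 differed from p0-1 at 1 of 11 elements, again Olig2 -52.0 kb (background 6.52%). p3 was below p2 at 3 of 12, 1 of 11 and 5 of 14 elements and above it at none (5.21%, 12.5% and 14.7% called lower in p3, and 7.29%, 19.5% and 26.0% in either direction), so that on day 5 the share at these loci was not above the background. On day 6 the count was also 5 of 14 without the library that stood apart (28.8% of all elements called).

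Other marker values also differed between the types. The summed level of 3 floor plate markers on day 6 lay between 1723 and 2991 normalized counts in p3 and between 496 and 933 over the other types, and no marker was at 0 in any sample. The summed level of 3 mesoderm markers on day 6 lay between 1569 and 1802 in p3 and between 932 and 1440 over the other types. On day 5 it lay between 1573 and 1855 in p3 and between 1631 and 1969 in p0-1, against 1170 to 1647 over p2 and pMN, again with no marker at 0. The 3 went in different directions on day 6. Meox1 had a mean of 856 in p3 against 274 to 369 in the other types. Msgn1, whose nearest element lay at -12699 bp, had 121 in p3 against 33.6 to 48.8. Tbx6, also listed for NMPs, had 693 in p3 against 767 to 857. The summed level of 4 neuronal markers on day 6 lay between 3981 and 4838 in pMN, between 2615 and 5666 in p2, between 3043 and 4128 in p3 and between 2658 and 3761 in p0-1. Their part in the differences at the Olig loci was not tested. Fewer cells with an open element and less opening per cell cannot be told apart in these bulk samples.

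From day 3 to day 4 the Olig loci both gained and lost accessibility. Relative to NMPs 8 of 12 tested elements were called in p0-1, 4 higher and 4 lower (background 41.4%), 7 of 14 in p2, 4 higher and 3 lower (48.0%), 8 of 16 in pMN, 6 higher and 2 lower (48.4%), and 6 of 12 in p3, 2 higher and 4 lower (44.7%). In p2, pMN and p3 these shares were near the background, and in p0-1 the share was above it by a difference that was not tested. Over the 4 comparisons 11 of 17 were called, against 54.5% of all elements tested. By gene, 2 Olig1 and 2 Olig2 elements rose in at least 1 type, against 1 Olig1 element that fell, whereas 2 Olig3 elements rose and 4 fell.

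From day 4 to day 5, 8 of 19 tested elements were called in pMN, 7 higher and 1 lower (background 15.6%), 5 of 13 in p2, 3 higher and 2 lower (15.9%), 4 of 9 in p0-1, 2 each way (16.2%), and 2 of 12 in p3, both higher (12.9%). From day 5 to day 6, 3 of 21 were called in pMN (4.42%), 2 of 12 in p3 (4.2%) and 1 of 9 in p0-1 (4.08%), all higher. In p2 limma called 0 of 15 (4.06%), and without the p2 library that stood apart 1 of 15, Olig3 -46.3 kb (7.11%). With all libraries and the replicate number as a block, Olig3 -46.3 kb was called there too (adjusted p = 0.00329, against 0.0179 without the block).

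The change from day 4 to day 6 itself differed between p3 and pMN at 4 of 14 tested elements, each rising less in p3 with SAG concentrations pooled (background 10.6%). The log2 rise was 1.62 in pMN and 0.27 in p3 at Olig2 -52.0 kb, a difference of -1.34 (limma, interaction term, adjusted p = 0.000469, but 0.0122 with voom on the recovered reads), and 1.60 and 0.39 at Olig2 -57.7 kb, a difference of -1.21 (adjusted p = 0.000646). Olig2 -57.7 kb is named here because of this call, after its values were seen. It was 1.71 and 0.36 at Olig1 +31.9 kb (adjusted p = 0.00795) and 3.30 and 1.69 at Olig1 +42.9 kb (adjusted p = 0.000162). At Olig1 +31.9 kb the difference was not called when the samples of any 1 replicate number were left out (adjusted p = 0.0403, 0.0171 and 0.0810 without 1, 2 and 3), and at Olig1 +42.9 kb it was not called without replicate 3 (adjusted p = 0.0310). The p3 change at Olig1 +31.9 kb pooled opposite directions, from a mean of 289 to 590 at 100 nM SAG and from 292 to 155 at 500 nM.

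The TSS element of Olig3, +0.4 kb, did not follow those of the other 2 genes. It was highest in NMPs, at 364, 348 and 292 normalized counts, above every sample of p2, pMN and p3 on day 4. Its means on day 4 were 209 ± 92.2 in p0-1 (SD, n = 6), 176 ± 32.3 in p2 (n = 6), 170 ± 31.8 in pMN (n = 6) and 158 ± 19.8 in p3 (n = 5), and on day 6 they were 104 ± 35.5 (n = 5), 85.2 ± 18.8 (n = 6), 94.8 ± 13.8 (n = 4) and 67.5 ± 13.8 (n = 4). On each day neighbors in the order of the means overlapped, and pMN did not stand apart.

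Of the falls at the Olig3 TSS, 2 passed the threshold, from NMPs to p3 (log2 -1.08, limma, adjusted p = 6.93e-06; -0.75 and not called with samples centered on their medians) and from day 4 to day 5 in p0-1 (-1.13, adjusted p = 0.00245). The latter had an adjusted p of 0.0590 without the replicate 2 samples and 0.0173 without those of replicate 3, and was -0.97 and not called as a difference of mean VST values. From NMPs the changes in p0-1, p2 and pMN were -0.68, -0.93 and -0.98. Between pMN and p0-1 on day 6 the difference on the VST scale had a 95% interval of -0.61 to 0.47. Olig3 +5.6 kb fell from NMPs in p0-1, p2 and p3, by log2 1.89, 2.51 and 2.33 (adjusted p between 2.85e-08 and 8.55e-06), and was not tested in pMN. Olig3 +57.6 kb held 147, 277 and 235 normalized counts in NMPs and fell to means of 34.2 to 47.2 on day 4, log2 changes of -2.65 in p3 to -2.19 in pMN (adjusted p between 1.69e-07 and 6.59e-06).

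**Figure D4:**
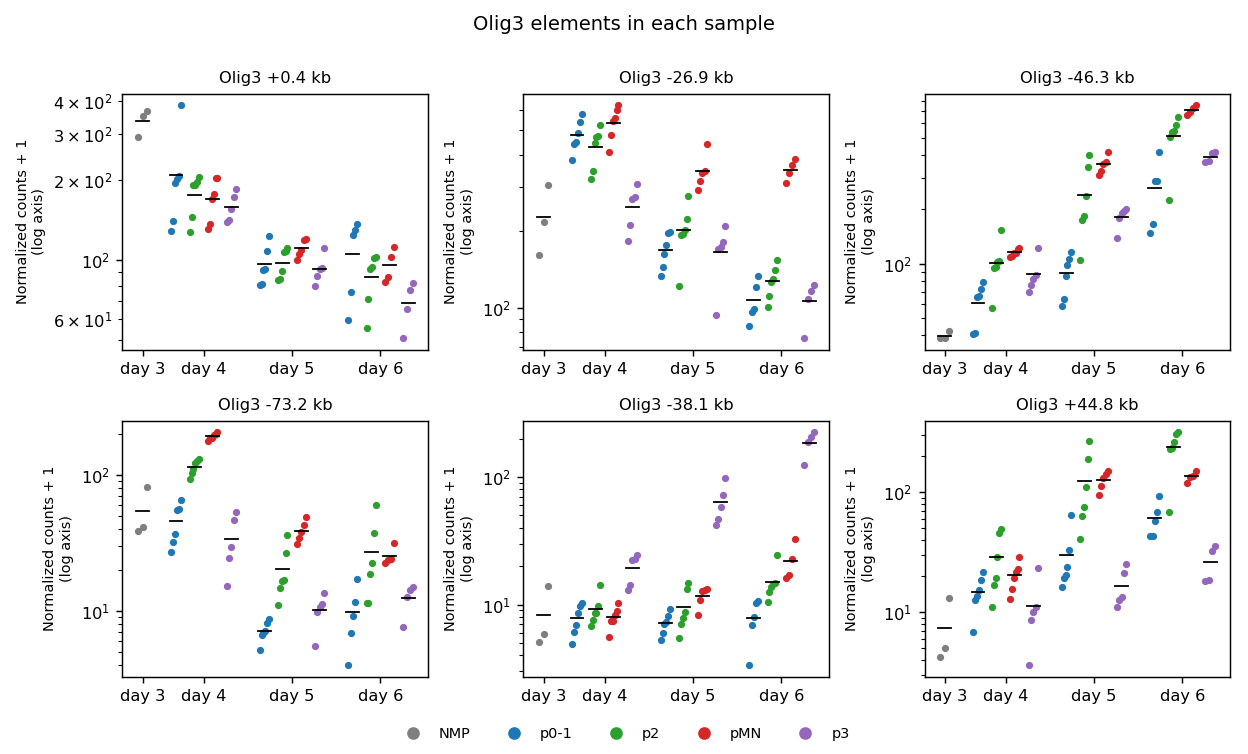
Normalized counts + 1 (log axis) of each sample at elements of Olig3, by day and cell type; points are samples ordered by value within a group and black bars are group means. The means of the TSS element lie below those of NMPs in every type, Olig3 -46.3 kb rises from day 4 to day 6, and Olig3 -38.1 kb is at 124 to 223 in p3 on day 6 and at 2.35 to 31.5 in the others.

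Among the distal Olig3 elements, -26.9 kb was high in all types but p3 on day 4 and in pMN alone on day 6. It held 160, 216 and 304 normalized counts in NMPs and on day 4 had means of 479 ± 71.4 in p0-1 (SD, n = 6), 429 ± 79.8 in p2 (n = 6), 535 ± 80.1 in pMN (n = 6) and 247 ± 50.0 in p3 (n = 5). On day 6 pMN held 308, 337, 363 and 384, against 99.5 to 153 in p2 (median 127, n = 6), 83.6, 95.5, 97.9, 120 and 133 in p0-1 and 75.1, 108, 116 and 122 in p3. pMN lay above all other samples on days 5 and 6, and the other 3 types overlapped.

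At Olig3 -26.9 kb the rise from NMPs was called in pMN (log2 1.24, limma, adjusted p = 7.93e-06) and p0-1 (1.08; 0.93 without the replicate 1 samples), and the fall from day 4 to day 5 was called in p0-1 (-1.51, adjusted p = 9.67e-07) and p2 (-1.09, adjusted p = 5.89e-05). pMN exceeded p0-1 on day 6 by 1.71 (adjusted p = 4.45e-05), p2 by 1.46 (adjusted p = 0.000135) and p3 by 1.72 (adjusted p = 2.81e-05). Without the replicate 2 samples the adjusted p-values against p0-1 and p2 were 0.0114 and 0.0283, and at 100 nM SAG alone that against p2 was 0.0792.

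Olig3 -46.3 kb rose over time in all 4 types. In NMPs it held 41.2, 37.8 and 37.7 normalized counts, and on day 4 the means lay between 59.8 in p0-1 and 114 in pMN. On day 6 pMN held 668, 697, 729 and 757, p2 lay between 226 and 653 (median 541, n = 6), p3 held 366, 371, 412 and 416, and p0-1 held 147 and 165 at 0 nM SAG and 286, 288 and 418 at 10 nM. The lowest p2 value was that of the library that stood apart, and without it the 5 p2 samples began at 504.

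In pMN Olig3 -46.3 kb rose by log2 1.62 from day 4 to day 5 (limma, adjusted p = 2.48e-09) and by 1.01 from day 5 to day 6 (adjusted p = 6.11e-05), or 0.88 without the replicate 2 samples. In p3 it rose by 1.05 (adjusted p = 0.000243), or 0.98 without the replicate 3 samples, and then by 1.11 (adjusted p = 0.000434). The second rise in pMN and the first in p3 were close to the threshold and were not called with a pseudocount of 10 (0.99 and 0.98) or with samples centered on their medians (0.87 and 0.88). In p2 it rose by 1.25 from day 4 to day 5 (adjusted p = 0.0034), with an adjusted p of 0.0197 without the replicate 1 samples, 0.0451 without those of replicate 2 and 0.0133 with samples centered on their medians. In p0-1 it rose by 1.57 from day 5 to day 6 (adjusted p = 0.00272), with an adjusted p of 0.0129 without the replicate 1 samples and 0.0474 without those of replicate 2. Against p0-1 on day 6 the log2 fold change of pMN was 1.45 (adjusted p = 0.00163), with an adjusted p of 0.0689 without the replicate 2 samples and 0.0366 without those of replicate 3, and the differences from p2 (0.49) and p3 (0.86) were not called.

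Among the elements that passed the filter on the mean, Olig3 -38.1 kb was the only one called lower in pMN than in another type in the 9 comparisons of pMN. Against pMN it passed that filter through p3. Without the filter, 1, 2 and 2 of the 44 elements were called lower in pMN than in p3 on days 4, 5 and 6. Of all 111638 elements, 4454, 13024 and 14988 were. It was near the floor in NMPs at 4.85, 4.05 and 12.9 normalized counts. In p3 it held 12.1, 13.3, 21.3, 21.7 and 23.7 on day 4, 40.7, 45.8, 57.2, 71.8 and 97.2 on day 5, and 124, 188, 206 and 223 on day 6. The other 3 types stayed between 2.35 and 31.5 in every sample, so that p3 lay above all of them on days 5 and 6.

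The rise of Olig3 -38.1 kb in p3 from day 5 to day 6 was log2 1.55 (limma, adjusted p = 0.00273), and on day 6 pMN was below p3 by 3.08 (adjusted p = 2.35e-05). It was not tested against p0-1 or p2, where its mean over the samples fitted was under 100. On day 6 its level and the summed floor plate and mesoderm markers given above were highest in p3 among the 4 types, although Tbx6 was lowest there. From day 5 to day 6 in p3 the median mesoderm sum was 1647 and then 1653, and the median floor plate sum 1834 and then 2207. NMPs had floor plate sums of 1844 to 2404 with this element near the floor. The part of these markers was not tested. Olig3 +44.8 kb had its highest day 6 mean in p2, at 236 ± 89.7 (SD, n = 6), with pMN samples at 119, 134, 136 and 151, p0-1 at 41.9, 42.6, 56.5, 67.8 and 92.1 and p3 at 17.3, 17.5, 31.3 and 34.6. In p2 the samples ran from 67.6, the library that stood apart, to 315, the next lowest being 230.

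At Olig3 +44.8 kb, p2 exceeded p0-1 by log2 1.95 (limma, adjusted p = 0.00486), but with an adjusted p of 0.0452 without the replicate 1 samples, 0.196 without those of replicate 2 and 0.0193 with voom on the recovered reads. p3 lay below p2 by 3.18 (adjusted p = 7.69e-05), with an adjusted p of 0.0209 with voom and 0.0242 at 100 nM SAG alone. pMN and p2 were not called different (-0.80, adjusted p = 0.285, 95% interval on the VST scale -1.37 to 0.11). Without the library that stood apart, the differences were 2.14 for p2 from p0-1 (adjusted p = 4.24e-05), -3.37 for p3 from p2 (adjusted p = 2.83e-07) and -0.99 for pMN from p2 (adjusted p = 0.000496), the last just under 2-fold. Olig3 -73.2 kb was open briefly. In pMN it lay between 178 and 206 on day 4 (median 192, n = 6), above 92.8 to 131 in p2, 25.9 to 64.7 in p0-1 and 14.1 to 52.5 in p3, and it held 30.2, 33.5, 36.8, 41.7 and 47.8 on day 5, a change of log2 -2.31 (adjusted p = 9.55e-10).

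Within a cell type the samples came from 2 SAG concentrations, and limma called 0 of the 29 tested Olig elements in the 12 comparisons of concentration, where the background was 0.00203% of all elements tested. voom on the recovered reads also called 0. Unadjusted p-values under 0.05 were found for 5 of 7 elements on day 5 and 4 of 10 on day 6 in p0-1, for 4 of 14 and 7 of 15 in p2, for 1 of 26 on day 6 in pMN and for 2 of 11 on day 6 in p3, and for 0 in each type on day 4 and in pMN and p3 on day 5. Over all elements tested the shares were 15.1% and 18.3% in p0-1, 11.6% and 10.2% in p2, 0.866% in pMN on day 6 and 0.966% in p3 on day 6. In all of these the groups did not overlap. With 2 or 3 samples in a group and elements picked by a small p, this adds no further evidence, and the share over all elements is not given. Blocking on the replicate number, 3 elements were called, against a background of 1.58% in p2 on day 5, 6.6% in p0-1 on day 6 and 0.151% in p3 on day 6.

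In p0-1, Olig2 -32.5 kb was at a mean of 1098 at 0 nM and 1970 at 10 nM on day 5 (log2 0.84, limma, adjusted p = 0.0255), and at 1523 and 2711 on day 6 (0.83, adjusted p = 0.0533). Its day 6 samples were 1442 and 1603 at 0 nM and 2567, 2754 and 2812 at 10 nM, with no overlap. Olig3 -46.3 kb in p0-1 on day 6 was at 156 at 0 nM and 330 at 10 nM (1.08, adjusted p = 0.0766; 7.61e-09 with the block). In p2, Olig3 +44.8 kb on day 5 was at 172 at 10 nM and 75.0 at 100 nM (adjusted p = 0.488; 0.000409 with the block).

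In p3 on day 6, Olig1 +31.9 kb held 574 and 607 normalized counts at 100 nM and 151 and 158 at 500 nM, a log2 change of -1.92 (limma, unadjusted p = 0.000153, adjusted p = 0.99998). With the block the adjusted p was 1.56e-42, in a fit of 4 samples with 1 residual degree of freedom. In pMN of the same day it held 2254 and 2728 at 100 nM and 2370 and 2574 at 500 nM, which overlap.

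**Figure D5:**
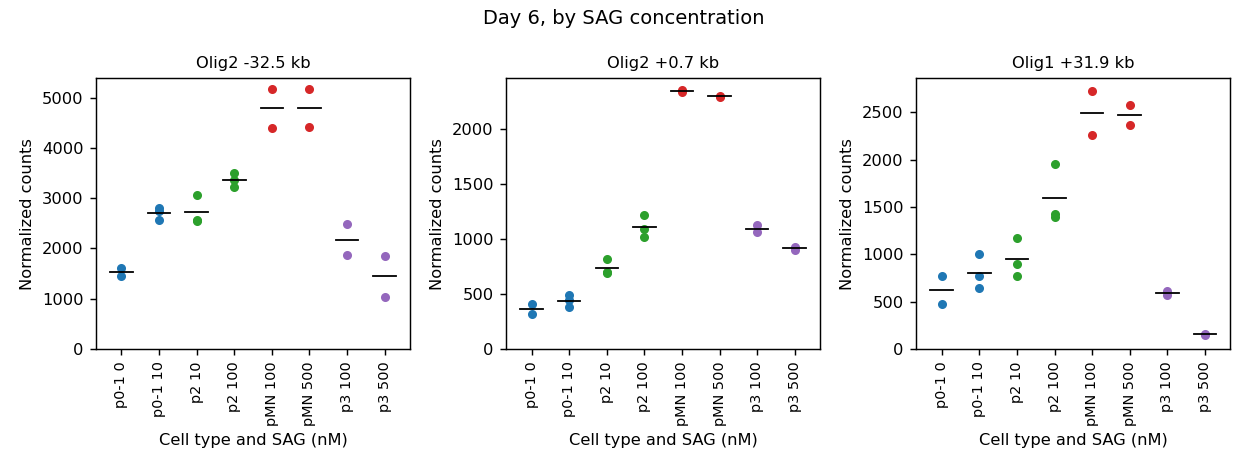
Normalized counts of each day 6 sample (linear axis from 0) by cell type and SAG concentration in nM at Olig elements. In p3 the 2 samples of 500 nM at Olig1 +31.9 kb lie at 151 and 158 and those of 100 nM at 574 and 607, and in p0-1 the 10 nM samples of Olig2 -32.5 kb lie above those of 0 nM.

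The promoter elements whose means followed the TSS elements most closely over the 25 conditions were taken from 6977 promoter elements with a mean above 100. For the Olig2 TSS they were Nkx6-1 (Pearson r = 0.838), a ventral homeodomain gene, Hey2 (0.807), a Notch target, and Nkx2-9 (0.804), a homeodomain gene of ventral progenitors. For the Olig1 TSS they were Mfsd7a (0.798), Stk40 (0.792) and Tmem119 (0.775), and for the Olig3 TSS Rprml (0.984), Bcl6b (0.975) and Cldn5 (0.971). These values describe likeness over conditions that share libraries.

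Beside the Olig loci stood the elements nearest the start of 20 genes of the ventral patterning network, of which 19 had an element in the table. These lay at most 1458 bp from the start, except the element of Ptch1 at 7090 bp upstream. Against p0-1 on day 5, pMN was higher at 3, Gli1 and Ptch1, targets of the hedgehog pathway, and Nkx2-9, and lower at 2, Pax3, a dorsal progenitor gene, and Dbx1. On day 6 it was higher at 2, Nkx2-9 and Ptch1, and lower at 3, Pax3, Pax7 and Dbx1. Against p3 on days 5 and 6, pMN was higher at 2, Dbx2 and the proneural gene Neurog2, and lower at 1, Foxa2. Of all elements tested on these days, 11.2% and 12.3% were called against p0-1 and 19.1% and 25.9% against p3. The counts against p3 were thus not above the background. Against p2, pMN was called at 0 of the 19 on days 4, 5 and 6 (background 0.277%, 2.31% and 3.96%). The median log2 fold change of the list on day 6 was -0.14 against p0-1 and 0.19 against p3, beside the -0.08 and -0.00 of all elements tested.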

How the data were processed

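CaTS-ATAC was measured in 67 samples. The authors ran nf-core/atacseq on mm10, with peaks from MACS2, a consensus set of peaks present in 2 or more replicates, and read counts per consensus peak. The authors deposited log2-scale VST values from DESeq2 and a HOMER annotation with the distance from each element to the nearest TSS in bp. No counts were used as deposited. The VST was inverted to reads and normalized counts, and in values below 1000 reads 100% came out whole within 0.01 (largest distance 3.60e-11).

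Samples were grouped by the day, cell type and SAG concentration of their labels. Differences were tested two-sided with limma 3.58.1 (R 4.3.3) on the VST values with a variance trend, each fit holding the compared groups alone, SAG concentrations pooled, over elements with a mean above 100 normalized counts. P-values were Benjamini-Hochberg adjusted over all elements tested. Calls required an adjusted p below 0.01 and group means, with a pseudocount of 1, that differed more than 2-fold. The fits were tested on simulated data. Tables and figures used Python 3.11.15 with pandas 2.3.3 and matplotlib 3.10.9.

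The 44 members and all gene lists were chosen with earlier results of these data known. The 19 elements described by name were the TSS elements, the elements with the highest means and those with the largest called changes in each set of comparisons. Replicates of a condition are separate differentiations, and the main fits did not block on the replicate number. Samples with the same title number deviated together from their group means in all 71 pairs on day 5 (median r = 0.569) and all 59 on day 6 (median r = 0.565), and in 69 of 77 on day 4, where r was over 0.1. For 15 samples the description gives another number. Depth limits the elements with few reads, and no interval for counting error was computed beside the spread between samples. The element of Nkx2-2 was not used here, and some sequences are not reported here.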

Additional observations from a re-analysis of the deposited data

Results flagged for a closer look

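In 228 groups of 4 to 6 samples at the named elements, 8 values (3.51%) lay far from the others of their group by Dixon's criterion. Chance gives about 1 in 20 groups, so the share was not above it, and some of the 8 values come from the same library. Of these, 4 belong to the day 6 p2 library at 100 nM labelled replicate 3, the library that stood apart. Its normalized counts were 67.6 at Olig3 +44.8 kb (the other 5 samples 230 to 315), 226 at Olig3 -46.3 kb (504 to 653), 23.4 at Olig3 -38.1 kb (9.42 to 13.9) and 153 at Olig2 +9.2 kb (54.4 to 86.6). On day 4, p0-1 replicate 3 at 10 nM held 183 at Olig1 +28.1 kb (68.5 to 82.5) and 384 at Olig3 +0.4 kb (127 to 208), and p0-1 replicate 3 at 0 nM held 143 at Olig3 -78.8 kb (75.4 to 98.7). On day 5, p0-1 replicate 1 at 0 nM held 64.2 at Olig3 +44.8 kb (15.3 to 32.4).

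The log2 change from day 4 to day 6 was smaller in p3 than in pMN at 4 elements by a test of the difference. The differences were -1.21 at Olig2 -57.7 kb, -1.34 at Olig2 -52.0 kb, -1.36 at Olig1 +31.9 kb and -1.61 at Olig1 +42.9 kb, and those at the Olig1 elements were not called in some of the fits that left out a replicate number, nor that at Olig2 -52.0 kb with voom.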

How the results depend on the processing

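Counts below are Olig elements called in at least 1 comparison of a set, in the order NMP to day 4, day 4 to day 5, the difference of the day 4 to day 6 change, pMN on days 4, 5 and 6, and pairs without pMN on days 4, 5 and 6. They were 11, 11, 4, 8, 15, 19, 3, 6 and 8 as reported, of 17, 19, 14, 16, 18, 24, 12, 11 and 14 tested. The shares of all elements tested were 54.5%, 25.3%, 10.6%, 9.77%, 23.1%, 29.1%, 9.0%, 23.4% and 30.4%. Without the filter on the mean, which lets all 44 elements enter, the counts were 32, 28, 14, 21, 39, 39, 11, 25 and 24. The shares over all elements for these sets were not computed without the filter, so the counts are not read as results about the loci. In single comparisons without it the shares were 47.3% to 58.0% for NMP to day 4 and 18.9% to 25.7% for day 4 to day 5. With an absolute log2 fold change above 2 the counts were 6, 2, 0, 4, 9, 12, 1, 2 and 3, and for day 5 to day 6 the count fell from 4 to 0. With all 67 samples in the fit, day 4 to day 5 gave 7, day 5 to day 6 gave 1 and pMN on day 6 gave 12. At matched SAG concentrations, which use fewer samples, the pairs without pMN gave 2 on day 5 and 4 on day 6. For the SAG comparisons the replicate block gave 3 with title numbers and 3 with description numbers, against 0, and changed no other call of the named elements except Olig3 -46.3 kb in p2 from day 5 to day 6. Leaving out each replicate number in turn gave 10 to 13 for NMP to day 4, 0 to 1 for SAG, 8 to 11 for day 4 to day 5, 1 to 4 for the difference in change, 2 to 4 for day 5 to day 6, 7 to 8, 13 to 15 and 16 to 19 for pMN, and 2 to 3, 6 to 7 and 6 to 8 for the other pairs.

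Of the 138 calls of named elements, 0 reversed under any of 14 other settings or the 1 chosen after seeing the data, which left out the day 6 p2 library that stood apart and kept all 14 calls it touched. voom kept 133, a pseudocount of 10 kept 134, and centering samples on their medians, which moved the median of all elements by -0.26 to 0.21 log2, kept 123 of 133. Matched SAG concentrations kept 35 of 52, a difference of mean VST values above 1 kept 132, and an absolute log2 fold change above 2 kept 61. Without replicate 1, 2 and 3, 19 of 135, 27 of 130 and 18 of 132 were lost. The cause of these changes was not tested. Elements with few reads were limited by depth.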
